A study of Mus musculus with 16 samples.

Results

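The collagen chain genes of the mouse were followed through 16 short-read RNA-Seq libraries. They are the protein-coding genes whose symbol has the form of a collagen alpha chain, and 44 of the 55385 genes in the count table met this rule, among 21897 protein-coding genes. The libraries cover heart, lung, kidney, spleen, liver, muscle and both adipose tissues, white and brown, of male C57BL/6 mice, acquired at 12 weeks of age, which carry no transgene and were kept on chow. The fed group ate freely and the fasting group had no food for 24 h. Equal amounts of a tissue from the 3 mice of a group were pooled, so each tissue and treatment is 1 library and no value below has a replicate error. Tests within a tissue therefore set 1 library against another and do not compare the conditions.

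Collagens are proteins of the extracellular matrix in which 3 alpha chains wind into a triple helix. Fibrillar chains form the cable-like fibrils of connective tissue, type IV chains form the sheet-like network of basement membranes under epithelia and around blood vessels, muscle fibres and fat cells, and type VI chains form beaded filaments close to cells. The remaining chains sit on the surface of fibrils (the FACIT chains), form hexagonal networks (types VIII and X) or anchoring fibrils (type VII), span the plasma membrane, or are basement membrane proteoglycans with interrupted helices (the multiplexins, types XV and XVIII). The 44 genes comprised 11 fibrillar, 6 type IV, 6 type VI, 3 type VIII or X, 1 type VII, 9 FACIT, 4 transmembrane and 2 multiplexin chains and 2 others. The question put to them was how fibrillar chains compared with basement membrane and other chains between fed and fasting tissues.

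All 44 genes had counts. Of these, 42 reached 1 CPM (counts scaled by the library total) in at least 1 library, 34 reached 10 CPM, 21 reached 100 CPM, and 21 stood at 1 CPM or more in all 16 libraries. Col2a1, the chain of cartilage type II collagen, with 73 counts over all libraries, and Col9a2, with 37, never reached 1 CPM. Library totals ran from 14245178 to 36069968 counts, so that 3 counts, taken as the floor, corresponded to 0.0832 to 0.211 CPM. The summed markers of each labelled tissue were highest in that tissue's own libraries. Single genes that were higher elsewhere in both treatments were the heart gene Myl7, in lung, and the brown adipocyte genes Elovl3, in liver, and Ppargc1a, in heart and kidney. The heart gene Nppa was highest in lung in the fed libraries.

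White adipose carried the most collagen RNA and spleen the least. Summed over the 44 chains, the level was 12356 CPM in fed and 8772 CPM in fasting white adipose, and collagen took 1.24% of the fed library (95% Clopper-Pearson interval 1.23 to 1.24%) and 0.877% of the fasting library (0.874 to 0.881%). Lung followed with 5948 and 5543 CPM. The fed levels of brown adipose, kidney, heart, muscle, liver and spleen were 3262, 2903, 2608, 2571, 1895 and 1552 CPM, and their fasting levels were 2354, 2387, 1799, 1570, 1593 and 1305 CPM. The fasting library was thus the lower of the pair in all 8 tissues, with log2 changes of -0.10 (lung) to -0.71 (muscle). These sums are descriptions without a test.

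**Figure D1:**
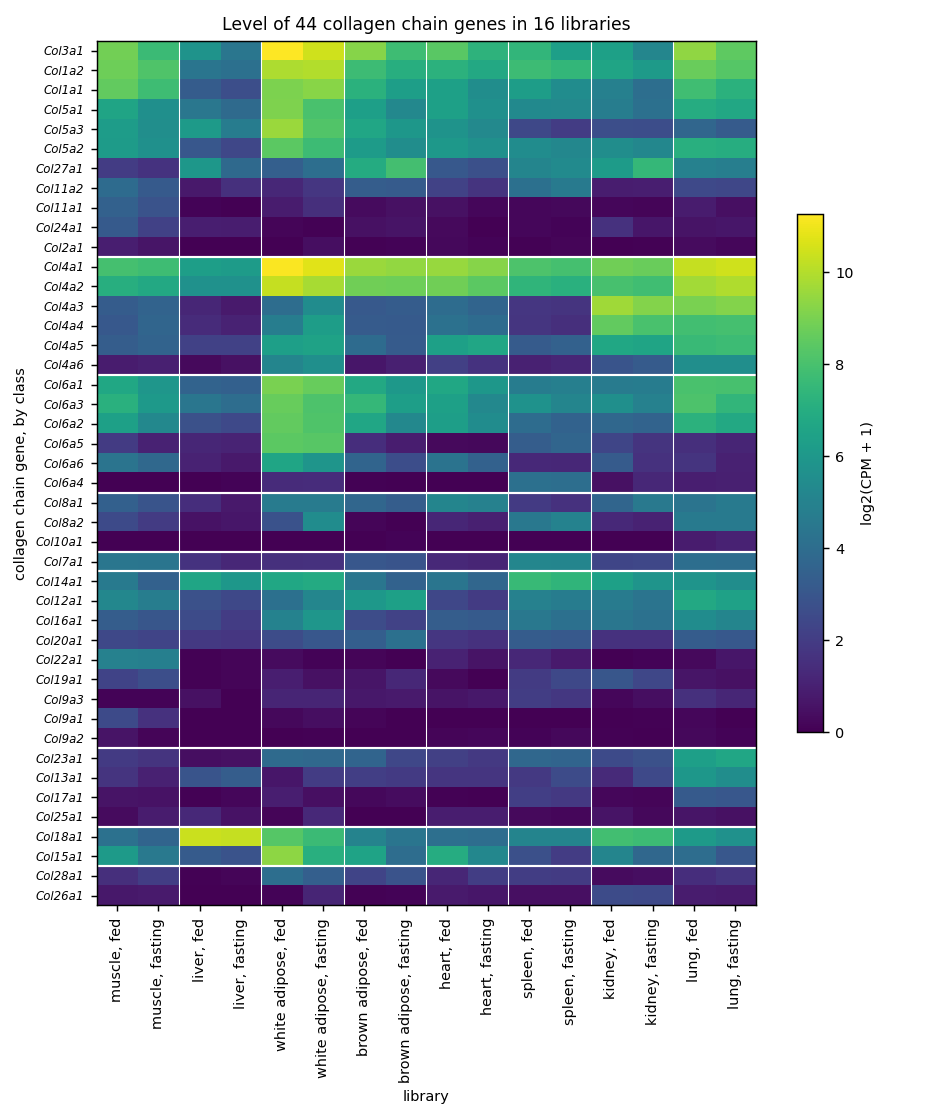
Level of each of the 44 collagen chain genes (rows, grouped by class with white lines between classes and ordered by mean level within a class) in each of the 16 libraries (columns), as log2(CPM + 1). Fibrillar Col3a1 and type IV Col4a1 and Col4a2 are high in nearly every tissue, whereas Col18a1 stands out in liver and Col4a3 and Col4a4 in kidney and lung.

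Each tissue had a leading chain, which was the same in its fed and its fasting library. Levels of different genes are compared here per kb of exon. Col4a1, a chain of the basement membrane network found in nearly all tissues, led in white adipose (320 CPM per kb fed), lung (168), brown adipose (102), heart (100) and spleen (37.4). Col1a1, which with Col1a2 makes type I collagen, led in muscle (57.7 CPM per kb fed and 33.0 fasting). Col18a1, whose carboxy-terminal fragment is endostatin, led in liver (191 and 176 CPM per kb). Col18a1 alone took 70.7% of the collagen counts of the fed liver library (70.3 to 71.2%) and 77.6% of those of the fasting library (77.2 to 78%). Col4a3, a chain of the mature glomerular basement membrane, led in kidney (81.3 and 58.1 CPM per kb).

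The 3 broad classes took different shares of the collagen counts by tissue. Fibrillar chains held 61.1% of them in fed muscle (60.7 to 61.5%) and 55.6% in fasting muscle (55.2 to 56.1%), but 27.5% and 19.7% in lung. Type IV chains held 69.2% in fed kidney (68.9 to 69.6%) and 66.4% in fasting kidney (66 to 66.7%), and 51.9% and 62.4% in lung. These intervals, like the floor, cover counting error only.

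**Figure D2:**
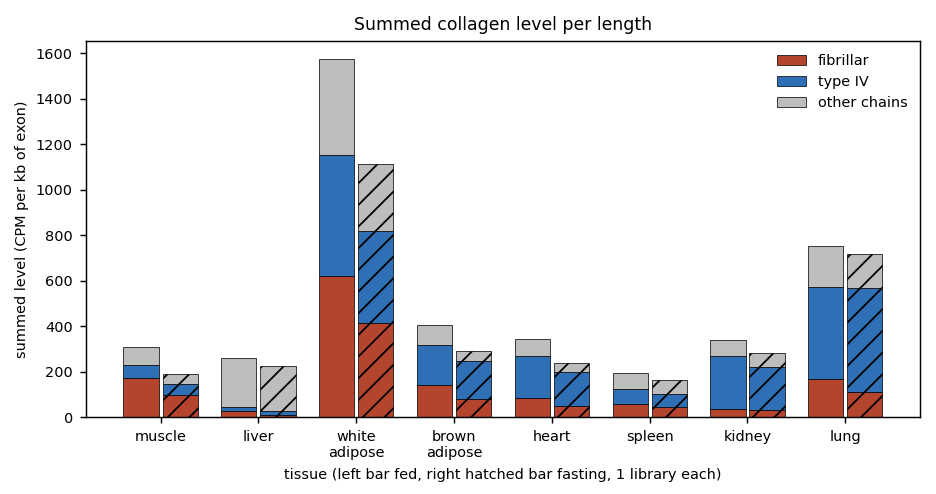
Summed level of fibrillar, type IV and all other chains, in CPM per kb of exon, for the fed (plain) and the fasting (hatched) library of each tissue, 1 library per bar. White adipose has the tallest bars, and the fibrillar part of the bar is lower in the fasting library in every tissue, including kidney where it is 35.3 against 32.2 CPM per kb.

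For changes shared between tissues, a joint fit of the 16 libraries by the quasi-likelihood test of edgeR took tissue as a block. Since the same 2 pools of mice gave all 8 tissues, the tissues are not independent animals. Of the 36 collagen genes abundant enough to enter this fit, 9 fell in fasting at a Benjamini-Hochberg adjusted p under 0.05 and 0 rose, where 2.08% of all 17296 genes tested fell and 2.31% rose. At an unadjusted p under 0.05, 14 collagen genes were lower and 0 higher, and DESeq2's Wald test called 11 lower and 0 higher. The genes that fell were fibrillar Col3a1, Col1a1, Col5a1, Col5a2 and Col5a3, type VI Col6a2, Col6a3 and Col6a6, and the multiplexin Col15a1. By class this was 5 of 9 fibrillar, 3 of 5 type VI and 0 of 6 type IV chains, with median log2 fold changes of -0.63, -0.64 and 0.12. For the type IV chains the count was also 0 at an unadjusted p under 0.05 and 0 by DESeq2. The median was -0.13 over the 36 collagen genes and -0.01 over all genes tested. The count of 9 became 4 without muscle, 3 without brown adipose and 3 without heart, and 0 without the tissue block. Whether the classes differ from each other was not tested.

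**Figure D3:**
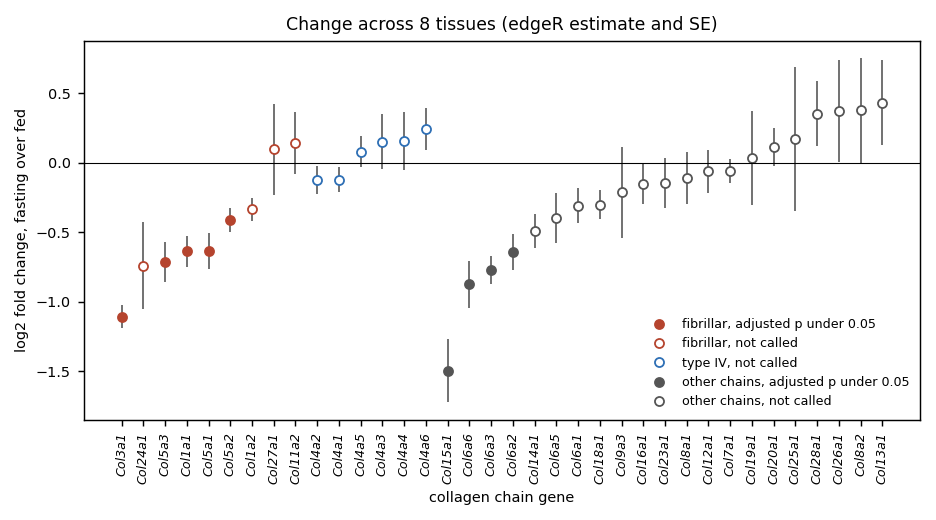
Log2 fold change of fasting over fed from the edgeR fit over 8 tissues for the 36 collagen chain genes tested, with the standard error as a bar. Filled points have an adjusted p under 0.05 and open points do not. The 9 filled points all lie below 0, from -0.41 for Col5a2 to -1.50 for Col15a1, and the 6 type IV chains lie between -0.13 and 0.24.

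Within single tissues, each gene was called by Fisher's exact test (two-sided, unadjusted p under 0.01) together with a log2 fold change above 0.5 in size, after adding 0.01 CPM to both levels. Over the 8 tissues the collagen genes were called lower 87 times and higher 29 times, and 13 of the 29 rises were in white adipose. With edgeR's exact test at an assumed coefficient of variation of 0.2, near the common value of 0.1956 in the fit over tissues, the calls were 27 lower and 8 higher, and at 0.4 they were 1 lower and 3 higher, so that the tissue counts given here rest on a test without variation between pools. Over all genes with a count, 6.15% of the gene and tissue pairs were called lower and 4.99% higher. Counting each gene in each tissue where it reached 1 CPM in either library as a pair, fibrillar chains were called lower in 38 and higher in 7 of 67 pairs, type VI chains lower in 21 and higher in 1 of 42, and type IV chains lower in 2 and higher in 3 of 45. Of all 126755 such pairs, 9.94% were called lower and 7.93% higher. The fibrillar and type VI shares lower in fasting were 56.7% and 50%. The type IV shares of 4.44% lower and 6.67% higher rest on only 2 and 3 pairs, and the share of rises was near that of all pairs. In 8 tissues of 8 the median log2 fold change of the fibrillar chains lay below that of the type IV chains. The summed levels had the opposite order in kidney, with log2 changes of 0.00 for the fibrillar and -0.34 for the type IV chains. Of the 21 collagen genes at 1 CPM or more in every library, 8 were lower in fasting in all 8 tissues (Col3a1, Col5a1, Col5a2, Col5a3, Col6a2, Col6a3, Col15a1 and Col18a1), where 8.27% of the 10792 genes at that level were. This count holds on library totals. With TMM factors, another scaling of the libraries, the log2 fold change turned for Col5a3 in kidney (-0.04 to 0.03) and Col18a1 in liver (-0.12 to 0.01). Col4a1, Col4a2, Col4a6, Col7a1, Col9a2, Col10a1, Col17a1 and Col22a1 were called in no tissue on library totals.

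**Figure D4:**
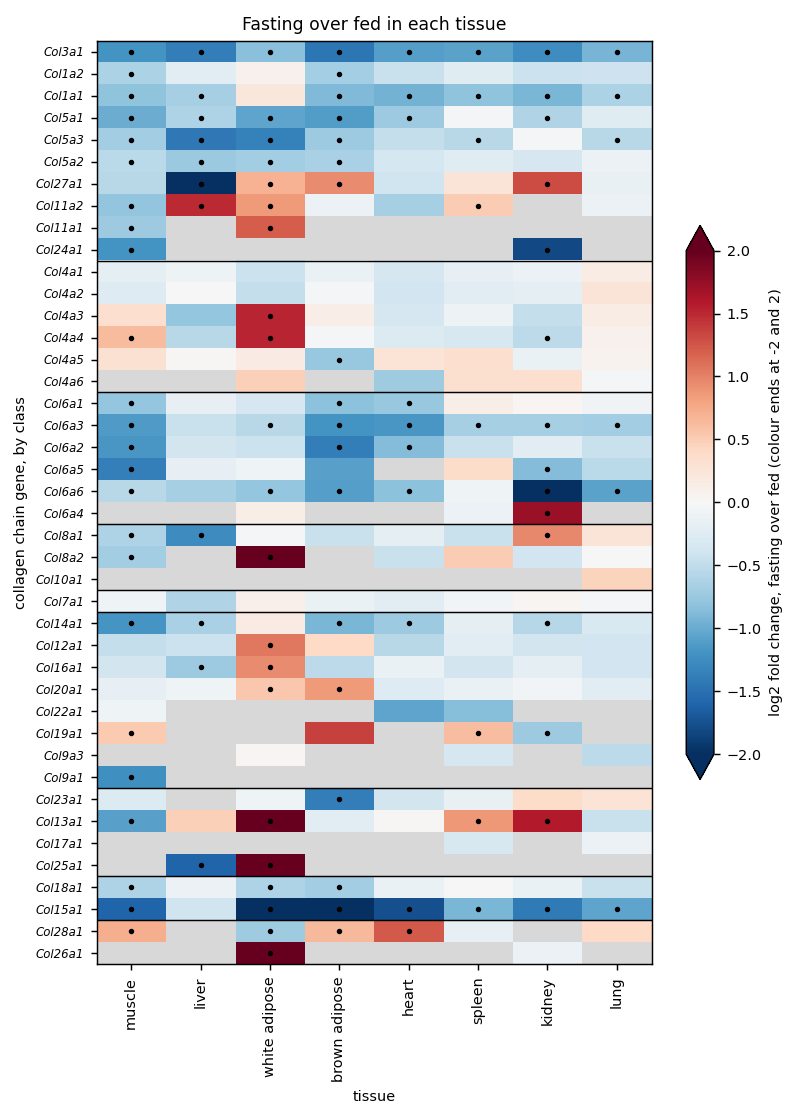
Log2 fold change of fasting over fed for each collagen chain gene (rows, grouped by class) in each tissue (columns), where blue is lower and red higher in fasting and the colour scale ends at -2 and 2. A dot marks a call by Fisher's exact test and fold change, and grey marks a gene under 1 CPM in both libraries. The fibrillar row Col3a1 is blue with a dot in all 8 tissues, and white adipose holds more dots on red (12) than any other tissue.

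Among the fibrillar chains, Col3a1 was the only one called lower in all 8 tissues. Col3a1 (ENSMUSG00000026043.18, chr1:45311538-45349706 on GRCm38, plus strand) encodes the single chain of type III collagen, which is found with type I in skin, vessels and hollow organs. Its level between fed and fasting went from 2482 to 1399 CPM in white adipose, 684 to 359 in lung, 602 to 221 in brown adipose, 466 to 204 in muscle, 334 to 156 in heart, 170 to 81.1 in spleen, 84.6 to 35.7 in kidney and 54.3 to 20.8 in liver. The fasting library was lower in every pair, although tissues differed from each other by far more than the treatments did. The log2 fold change ran from -0.83 in white adipose to -1.45 in brown adipose, and the edgeR estimate over tissues was -1.11 (SE 0.0813, adjusted p = 0.000851). The call stayed when each tissue was left out in turn, with an adjusted p of at most 0.00605.

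The chains of type I collagen moved less, and not alike. Col1a1 was called lower in 7 tissues, with log2 fold changes of -0.63 (lung) to -0.94 (heart), and its level in white adipose was 533 CPM fed and 626 CPM fasting. In muscle, where it was the leading chain, it went from 379 to 216 CPM. Over tissues Col1a1 fell by 0.64 on the log2 scale (SE 0.112, adjusted p = 0.0189), a call that was lost without muscle, brown adipose or heart (adjusted p of at most 0.0574). Col1a2, its partner chain, was called lower only in muscle (448 to 288 CPM) and brown adipose (214 to 134 CPM), and its estimate over tissues was -0.34 (SE 0.0834, adjusted p = 0.0501). Type I collagen holds more Col1a1 than Col1a2 protein chains, and per kb of exon the ratio of Col1a1 to Col1a2 RNA lay between 0.419 and 1.6 in these libraries. The ratio was lower in the fasting library in 7 tissues and higher in white adipose (1.07 fed, 1.18 fasting).

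The type V chains, which set the diameter of type I fibrils, fell together in the fit over tissues. Col5a1 fell by 0.63 (SE 0.13, adjusted p = 0.0294), Col5a3 by 0.71 (SE 0.146, adjusted p = 0.0294) and Col5a2 by 0.41 (SE 0.0865, adjusted p = 0.0313) on the log2 scale. The largest changes in level were in white adipose, where Col5a3 went from 759 to 299 CPM, Col5a1 from 545 to 264 and Col5a2 from 345 to 214. Of the 6 values in spleen and kidney, Col5a1 in kidney (26.1 to 17.1 CPM) and Col5a3 in spleen (4.42 to 2.98 CPM) were called lower. Nearly equal in both libraries were Col5a1 in spleen (39.4 and 38.7 CPM) and Col5a3 in kidney (5.48 and 5.31 CPM). All 3 calls were lost when muscle, brown adipose or heart was left out, with adjusted p of at most 0.0874. The calls of Col5a1 and Col5a2 were also lost without kidney and those of Col5a2 and Col5a3 without liver, and that of Col5a3 without lung. Col5a2 lies tail to tail with Col3a1 on chromosome 1, with 24614 bases between them.

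**Figure D5:**
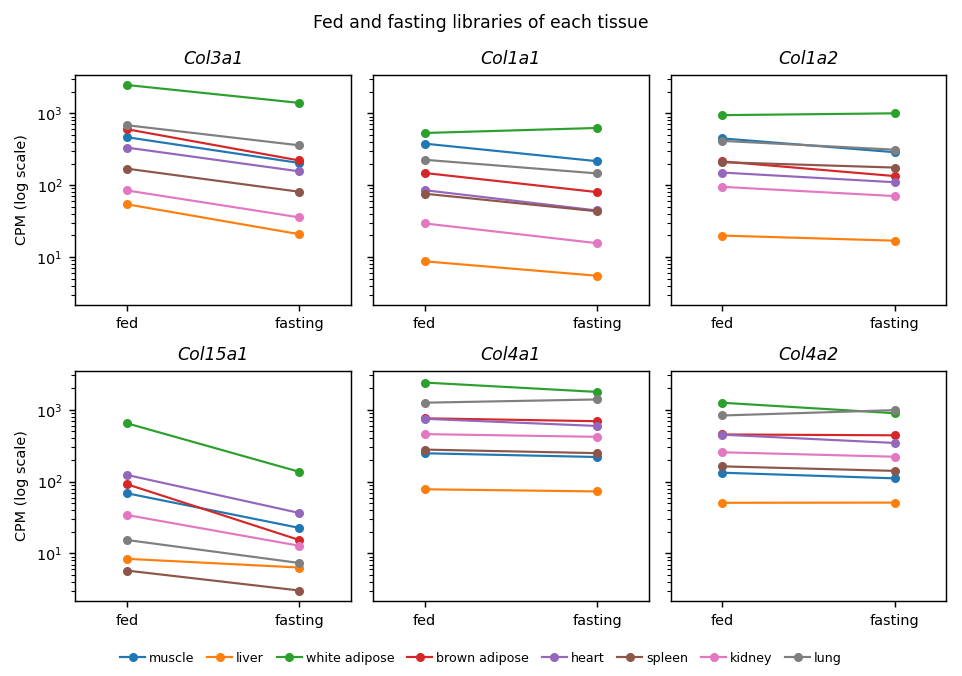
Level in CPM (log scale) of 3 fibrillar chains, the multiplexin chain Col15a1 and 2 type IV chains in the fed and the fasting library of each tissue, joined by a line per tissue. All lines of Col3a1 and Col15a1 go down from fed to fasting, 7 of 8 lines of Col1a1 go down, and the lines of Col4a1 and Col4a2 are close to level.

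The remaining fibrillar chains had lower mean levels over the 16 libraries. Col27a1, Col11a2 and Col11a1 were called in different directions by tissue, while Col24a1 was called only lower. In the fasting libraries of kidney and brown adipose, Col27a1 nonetheless had the highest CPM of the fibrillar chains. Col27a1, a fibrillar chain found in cartilage, was called lower in liver (62.6 to 13.5 CPM, log2 fold change -2.21) and higher in kidney (72 to 179 CPM, 1.31), brown adipose (123 to 237 CPM, 0.95) and white adipose (9.7 to 15.7 CPM, 0.69). With Col27a1 included, the summed fibrillar level of kidney was 361.2 CPM fed and 361.4 CPM fasting. Over tissues the estimate for Col27a1 was 0.10 (SE 0.324, adjusted p = 0.889). Col11a2, a chain of type XI collagen, was called lower in muscle (14.2 to 8.21 CPM) and higher in spleen (16.7 to 23.9 CPM), in white adipose (1.37 to 2.48 CPM) and in liver (0.695 to 1.96 CPM). Col11a1 was called lower in muscle (10.4 to 6.34 CPM) and higher in white adipose (0.816 to 1.9 CPM). Col24a1 was called lower in muscle (8.1 to 3.56 CPM) and in kidney (2.05 to 0.582 CPM).

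Type VI chains stand apart from the fibrils and link them to basement membranes and cells. Col6a3, the longest of the chains that form the common type VI trimer, was called lower in 7 tissues and lower without a call in liver (20.5 to 15.1 CPM). Its level went from 403 to 276 CPM in white adipose, 277 to 172 in lung, 179 to 78.3 in brown adipose, 141 to 64.6 in muscle, 83.4 to 37.1 in heart, 53.5 to 33.8 in spleen and 48 to 30.3 in kidney. Over tissues Col6a3 fell by 0.77 on the log2 scale (SE 0.1, adjusted p = 0.0067), and the call stayed when any single tissue was left out (adjusted p of at most 0.0257).

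The partners of Col6a3 in the trimer, Col6a1 and Col6a2, were called lower in the same 3 tissues, muscle, brown adipose and heart. Col6a2 went from 83.1 to 36.9 CPM in muscle and from 99.8 to 38 CPM in brown adipose, and Col6a1 from 103 to 59.9 and from 112 to 63.4 CPM. Over tissues Col6a2 fell by 0.64 (SE 0.132, adjusted p = 0.0294), a call lost without muscle, brown adipose, heart or lung (adjusted p of at most 0.0774), and the estimate for Col6a1 was -0.31 (SE 0.126, adjusted p = 0.171). The ratio of Col6a1 to Col6a2 per kb of exon was accordingly higher in the fasting library in all 8 tissues.

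Col6a4, Col6a5 and Col6a6 are related chains that can take the place of Col6a3. Col6a6 fell over tissues by 0.88 (SE 0.171, adjusted p = 0.0258) and was called lower in 6 tissues, with levels of 98.8 and 57.8 CPM in white adipose and 8.55 and 2.09 CPM in kidney. The call of Col6a6 over tissues was lost without brown adipose, heart or lung (adjusted p of at most 0.072). Col6a5 was abundant in white adipose only (347 and 326 CPM) and was called lower in muscle and kidney, where it stood under 5 CPM. Col6a4 was found mainly in spleen (17.1 and 15.8 CPM) and was called higher in kidney (0.401 to 1.36 CPM).

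Col15a1 had the largest fall over tissues of the collagen genes. The gene (ENSMUSG00000028339.17) lies at chr4:47208161-47313167 on the plus strand. Type XV collagen lies at the border of basement membrane and interstitial matrix, in muscle and around capillaries. Its level went from 649 to 137 CPM in white adipose, 124 to 36.6 in heart, 92.1 to 15.4 in brown adipose, 68.9 to 22.7 in muscle, 34.3 to 12.8 in kidney, 15.4 to 7.37 in lung and 5.78 to 3.05 in spleen, each a call. The liver levels of 8.42 and 6.37 CPM were not called. Among the collagen genes called lower with at least 10 CPM in either library, Col15a1 had the largest fold change in muscle, white adipose, brown adipose, heart, kidney and lung. Over tissues it fell by 1.50 on the log2 scale (SE 0.228, adjusted p = 0.0117), and the call stayed when any single tissue was left out (adjusted p of at most 0.041).

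Col18a1, the other multiplexin, was called in 3 tissues. It was called lower in muscle (17.7 to 11.6 CPM), white adipose (316 to 207 CPM) and brown adipose (31.6 to 19.6 CPM). In liver, where it was the most abundant collagen gene, it stood at 1341 CPM fed and 1236 CPM fasting, and in kidney at 231 and 212 CPM. Over tissues the estimate was -0.30 (SE 0.105, adjusted p = 0.12). Across the 8 fed libraries the correlation of log2 levels of Col15a1 and Col18a1 was -0.129, against 0.976 for Col1a1 and Col1a2 and 0.993 for Col6a1 and Col6a2. These correlations are descriptions over libraries that share the same 3 mice.

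Type IV chains come as 3 pairs of neighbouring genes that face away from each other. Their products form the ubiquitous network of Col4a1 and Col4a2, the network of Col4a3, Col4a4 and Col4a5 in kidney glomeruli and lung alveoli, and a network with Col4a5 and Col4a6. On GRCm38, Col4a1 (chr8:11198423-11312826, minus strand) and Col4a2 (chr8:11312805-11449287, plus strand) overlap by 22 bases at their starts. Col4a4 (chr1:82448423-82586849, minus strand) and Col4a3 (chr1:82586921-82722059, plus strand) are 71 bases apart. Col4a6 (chrX:141165403-141474076, minus strand) and Col4a5 (chrX:141475385-141689234, plus strand) are 1308 bases apart. The exonic bases that Col4a1 and Col4a2 share are shown because a read from them belongs to either gene by position. They make up 0.295% of the exon length of Col4a1 and 0.332% of that of Col4a2, and read on the plus strand from the RefSeq start windows on GRCm38.p6 they are as follows.
Col4a1/Col4a2 shared start (chr8:11312805-11312826): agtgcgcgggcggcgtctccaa

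Col4a1 and Col4a2 were called in no tissue on library totals. In white adipose this rested on the scaling. With TMM factors their log2 fold changes there were -0.54 and -0.59, and with DESeq2 size factors -0.55 and -0.60, beyond the threshold of 0.5. Col4a1 stood at 2392 CPM fed and 1772 CPM fasting in white adipose, 1254 and 1391 in lung, 760 and 693 in brown adipose, 748 and 595 in heart, 458 and 420 in kidney, 279 and 249 in spleen, 248 and 220 in muscle and 78.2 and 73 in liver. The fasting level was lower in 7 tissues and higher in lung, and the log2 fold change ran from -0.43 in white adipose to 0.15 in lung. In liver the direction of Col4a1 turned with the scaling, from -0.10 on library totals to 0.02 with TMM factors and 0.03 with DESeq2 size factors. Col4a2 ranged from -0.48 in white adipose (1252 and 895 CPM) to 0.25 in lung (832 and 988 CPM). Over tissues the estimates were -0.12 for Col4a1 (SE 0.0909, adjusted p = 0.441) and -0.13 for Col4a2 (SE 0.0994, adjusted p = 0.475). Their ratio per kb of exon kept to between 1.25 and 1.76 in all 16 libraries, and their log2 levels correlated with 0.997 over the 8 fed libraries.

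Measured against Col4a1, Col3a1 was lower in the fasting library of every tissue. The ratio of Col3a1 to Col4a1 per kb of exon went from 1.43 to 0.707 in muscle, 0.789 to 0.6 in white adipose, 0.602 to 0.242 in brown adipose, 0.528 to 0.216 in liver, 0.464 to 0.248 in spleen, 0.415 to 0.196 in lung, 0.34 to 0.2 in heart and 0.14 to 0.0646 in kidney. A ratio within a library does not depend on how libraries are scaled. It shows unequal change of the 2 genes and does not show that Col4a1 was unchanged.

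Col4a3 and Col4a4 were abundant in kidney and lung and scarce in most other tissues. In kidney Col4a3 stood at 810 CPM fed and 580 CPM fasting (log2 fold change -0.48, not called) and Col4a4 at 376 and 260 CPM (-0.53, called lower). With TMM factors the value for Col4a4 in kidney was -0.46, short of the threshold of 0.5. The podocyte list, meant for the glomerular cells that make this network, summed to 357 CPM in the fed and 316 CPM in the fasting kidney library. It had counts for 4 of 4 genes, and 4 of 4 were lower in fasting. The list also summed to 527 and 476 CPM in lung and to 270 and 325 CPM in heart, so its sum is not particular to podocytes. The part of these cells in the kidney values was not tested. Of the exon length of Col4a3, 5.65% overlaps a gene on the opposite strand whose own level was at most 2.04 CPM. In lung the levels were 521 and 579 CPM for Col4a3 and 233 and 245 CPM for Col4a4. In white adipose both were called higher, Col4a3 from 15.2 to 43.6 CPM and Col4a4 from 26.7 to 77.3 CPM, and in muscle Col4a4 was called higher (7.68 to 12 CPM). Over tissues the estimates were 0.15 and 0.16, with adjusted p of 0.674 and 0.682. The log2 levels of this pair correlated with 0.989 over the 8 fed libraries.

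Col4a5 was highest in lung, at 200 CPM fed and 209 CPM fasting, and Col4a6 stood at 47.1 and 46.5 CPM in lung and at 34.6 and 48 CPM in white adipose. Col4a5 was called lower in brown adipose (14.4 to 8.49 CPM) and in no other tissue, and Col4a6 was called nowhere. Their estimates over tissues were 0.08 (adjusted p = 0.707) and 0.24 (adjusted p = 0.354), and their log2 levels correlated with 0.872 over the fed libraries.

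FACIT chains coat fibrils and have short helices broken by other domains. Col14a1 was the most abundant of them and highest in spleen (190 and 168 CPM). It was called lower in muscle (23.3 to 10.3 CPM), liver (97.7 to 62.1), brown adipose (20.2 to 10.7), heart (20 to 12.1) and kidney (84.2 to 56.9), and its estimate over tissues was -0.49 (SE 0.122, adjusted p = 0.0505). Col12a1 and Col16a1 were called higher in white adipose, from 16.8 to 34.9 and from 31.2 to 60.1 CPM, and Col16a1 was called lower in liver (4.99 to 3 CPM). Col12a1 was highest in lung, at 112 and 86.2 CPM. Col20a1 was called higher in white adipose (5.07 to 7.36 CPM) and brown adipose (9.39 to 17 CPM). Col22a1, a chain of the junction between muscle and tendon, reached 10 CPM in muscle only, at 30.3 and 28.4 CPM.

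The other chains were called in 0 to 4 tissues each. Col8a1 and Col8a2 make type VIII collagen of vessels and the cornea. Among chains with 10 CPM, Col8a2 had the largest called rise in white adipose, from 6.27 to 44 CPM, and was called lower in muscle (4.73 to 2.91 CPM). Col8a1 was called higher in kidney (11.7 to 22.7 CPM) and lower in muscle (10.1 to 6.63 CPM) and liver (1.74 to 0.721 CPM). The transmembrane chains Col23a1 and Col13a1 were highest in lung, at 82.3 and 100 CPM and at 62.5 and 45.7 CPM. Col23a1 was called lower in brown adipose (11.3 to 4.28 CPM), and Col13a1 was called higher in kidney (1.56 to 4.69 CPM), spleen (2.69 to 4.89 CPM) and white adipose (0.601 to 3.06 CPM) and lower in muscle (2.28 to 1.07 CPM). Col28a1 was called lower in white adipose (16.1 to 9.81 CPM) and higher in muscle, brown adipose and heart, where it stood under 10 CPM. Col7a1, the chain of anchoring fibrils, was highest in spleen at 35.7 and 34.3 CPM.

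By tissue, muscle had the most calls. Of the 42 collagen genes with a count, 21 were called lower and 4 higher, where 9.39% and 4.42% of the 25604 genes with a count were. All 21 were among the 35 collagen genes at 1 CPM, where 16.4% of genes at that level were called lower. Of 10 fibrillar chains at 1 CPM, 9 fell, and of 5 type VI chains, 5 fell. The 1 rise with 10 CPM was Col4a4. With an assumed coefficient of variation of 0.2, 8 genes were called lower in muscle. Tendon markers summed to 241 CPM in fed and 195 CPM in fasting muscle, with 6 of 6 genes lower. The defining genes Scx, Kera and Tnmd went from 4.15 to 1.26, from 10.1 to 4.04 and from 7.23 to 3.75 CPM. Adipocyte markers summed to 152 and 153 CPM, with 4 of 5 genes lower and Fabp4 higher (110 and 132 CPM). Adiponectin (Adipoq) went from 16.1 to 6.79 CPM and Plin1, a coat protein of lipid droplets, from 11.5 to 3.33 CPM. Smooth muscle and pericyte markers summed to 535 CPM fed and 437 CPM fasting, with 5 of 6 genes lower. Endothelial markers summed to 281 and 220 CPM, with 5 of 6 genes lower, among them Kdr (63.3 and 28.1 CPM). Macrophage markers summed to 66.7 and 55.2 CPM, with 5 of 5 genes lower. The part of these lists in the muscle values was not tested.

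In liver 11 were called lower and 1 higher of 39 collagen genes with a count, where 9.52% and 4.46% of all genes with a count were. At 1 CPM the count was 10 of 28, against 15.8% of genes. Of the 8 fibrillar chains at 1 CPM, 6 fell, and their summed level went from 245.6 to 103.8 CPM. The type IV median in liver was -0.10 on library totals and 0.02 with TMM factors, which moved the median of all genes there from -0.13 to 0.00. Stellate cell markers, for the cells that make fibrillar collagen in liver, summed to 385 and 349 CPM, with counts for 5 of 5 genes in both libraries and 4 of 5 lower in fasting. Of these, Lrat, the vitamin A storage enzyme of stellate cells, went from 36.7 to 17.5 CPM (log2 fold change -1.07), and the other 4 lay between -0.16 and 0.14. The pancreatic acinar list summed to 53.8 CPM in fed and 153 CPM in fasting liver, again with counts for 5 of 5 genes. The part of such a difference in the collagen values was not tested.

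White adipose differed in that more collagen genes were called higher than lower, as was the case among all genes there. Of 43 with a count, 9 were called lower and 13 higher, where 5.84% and 13.2% of all genes with a count were, and at 1 CPM 9 and 12 of 36, where 9.23% and 19.8% were. The falls were Col3a1, Col5a1, Col5a2, Col5a3, Col6a3, Col6a6, Col15a1, Col18a1 and Col28a1, while the abundant Col1a1, Col1a2 and Col6a1 were not called. The summed fibrillar level went from 5620 to 3825 CPM. The median log2 fold change of the fibrillar chains was 0.08 on library totals and -0.02 with TMM factors, as library totals and TMM factors moved the median of all genes in white adipose from 0.07 to -0.04. Tendon markers summed to 41.7 CPM fed and 87.9 CPM fasting. Most of this was Fmod (41.3 and 83.3 CPM), while the defining genes Tnmd and Scx were at 0 and 0.0859 CPM fed and at 0.802 and 1.31 CPM fasting. Fibroblast markers summed to 1950 and 2314 CPM. Smooth muscle and pericyte markers summed to 1147 CPM fed and 794 CPM fasting, with 5 of 6 genes lower, mostly through Rgs5 (502 and 210 CPM). The part of these lists in the rises and falls was not tested.

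In brown adipose 15 were called lower and 3 higher of 42, where 7.58% and 5.39% of genes with a count were, and at 1 CPM the falls were 15 of 30 against 12.2%. The falls covered 6 of 8 fibrillar and 4 of 5 type VI chains at 1 CPM. Skeletal muscle markers summed to 2220 CPM in the fed and 1039 CPM in the fasting library, with counts for 5 of 5 genes, and their part in these values was not tested. In heart 9 were called lower and 1 higher of 41, where 5.8% and 4.33% were, and at 1 CPM 9 of 31 against 9.65%. The heart falls were Col1a1, Col3a1 and Col5a1, the type VI chains Col6a1, Col6a2, Col6a3 and Col6a6, Col14a1 and Col15a1. Heart markers summed to 46380 CPM fed and 42248 CPM fasting in heart, where Actc1, the cardiac actin, went from 10124 to 5489 CPM and the atrial myosin light chain Myl7 from 14.5 to 0.918 CPM. The other 3 of the 5 were slightly higher in fasting, with Myh6 at 30767 and 31097, Tnnt2 at 5362 and 5542 and Nppa at 113 and 119 CPM. Endothelial markers summed to 1048 and 832 CPM, with 5 of 6 genes lower. Smooth muscle and pericyte markers summed to 1128 and 1179 CPM, with 5 of 6 genes lower and Rgs5 higher (807 and 923 CPM). Tendon markers summed to 14.5 and 9.31 CPM, with 5 of 6 genes lower and Kera at 0 in both libraries, and liver markers to 18.1 and 69.7 CPM, with 5 of 5 higher. The part of these lists in the heart values was not tested.

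In spleen 5 were called lower and 3 higher of 42, where 1.62% and 2.31% of genes with a count were, and at 1 CPM 5 of 36 against 2.33%. The falls were Col1a1, Col3a1, Col5a3, Col6a3 and Col15a1, and the largest was Col3a1 at -1.07. Fibroblast markers summed to 152 CPM fed and 279 CPM fasting in spleen, where Pdgfra went from 68.4 to 194 CPM and Dcn from 37.9 to 43.9 CPM, while the other 5 of the 7 genes were lower, from -0.04 for Dpt to -1.34 for Lum. Smooth muscle and pericyte markers summed to 379 CPM fed and 300 CPM fasting, with 4 of 6 genes lower, among them Acta2 (87.3 and 39.9 CPM) and Cnn1 (6.71 and 1.83 CPM). Pancreatic acinar markers summed to 348 CPM in the fed and 0.467 CPM in the fasting spleen library. The part of these lists in the spleen values was not tested.

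In kidney 11 were called lower and 4 higher of 43, where 3.93% and 2.77% of genes with a count were, and at 1 CPM 11 of 33 against 6.23%. Col15a1 had the largest called fall and Col27a1 the largest called rise among those with 10 CPM. In lung 6 were called lower and 0 higher of 44, where 6.49% and 2.68% were, and at 1 CPM 6 of 34 against 10.1%. Heart markers in lung summed to 1031 CPM fed and 519 CPM fasting, with counts for 5 of 5 genes. B cell markers summed to 183 and 88.4 CPM there, with 5 of 5 genes lower. The stellate cell list summed to 171 and 156 CPM in lung, with 3 of 5 genes lower. In it Lrat went from 62.2 to 24.9 CPM, while Reln went from 22.5 to 42.3 CPM and Rgs5 from 14.7 to 20.1 CPM. The part of these markers in the lung values was not tested. The lung falls were Col1a1, Col3a1, Col5a3, Col6a3, Col6a6 and Col15a1.

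Fibroblasts make most fibrillar collagen, and in bulk tissue fewer cells of a type and less RNA per cell cannot be told apart. The fibroblast list, of which Dcn, Dpt and Lum are also fibril proteins, had counts for 7 of 7 genes in all 16 libraries. Its sum, of which Dcn was a large part, had log2 changes of 0.03 (muscle) to 0.26 (liver, kidney) apart from spleen at 0.88. Its genes did not move together. Dcn was higher in fasting in all 8 tissues and Pdgfra in 7, whereas Cd34 was lower in all 8, Dpt, Lum and Pi16 in 6 each and Mfap5 in 5. In muscle 5 of the 7 were lower, from -0.29 for Mfap5 to -0.61 for Cd34, and in brown adipose 6 of the 7. The part of these genes' cells in the collagen values was not tested. The endothelial list had log2 changes of -0.35 (muscle) to 0.15 (spleen).

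Chains are hydroxylated, folded and secreted with the help of dedicated proteins, and 3 of the 20 such genes in the fit over tissues fell and 0 rose by edgeR, where 2.08% of all genes tested fell and 2.31% rose. At an unadjusted p under 0.05 the counts were 5 lower and 2 higher, and by DESeq2 5 lower and 1 higher (P3h4). Serpinh1, the collagen-specific chaperone HSP47, fell by 1.13 on the log2 scale (SE 0.159, adjusted p = 0.00863). Its level went from 470 to 170 CPM in white adipose, 348 to 82.6 in brown adipose, 298 to 155 in lung, 247 to 107 in heart, 95.6 to 69.4 in kidney, 77.6 to 46.8 in spleen, 60.5 to 24 in muscle and 14.1 to 6.33 in liver, lower in all 8 tissues and called in 7. Crtap, a part of the prolyl 3-hydroxylation complex, fell by 0.52 (adjusted p = 0.0169). Creb3l1, a transcription factor that acts on collagen and secretion genes, fell by 0.57 (adjusted p = 0.0356). The most abundant genes of the list, P4hb and Mia3, had estimates of 0.01 and 0.12 (adjusted p = 0.947 and 0.395).

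Of the 12 genes for trimming and cross-linking of fibrils in the fit, 2 fell and 1 rose by edgeR, against the same 2.08% and 2.31% of all genes. DESeq2 called 2 lower and 1 higher, and edgeR at an unadjusted p under 0.05 had 3 lower and 1 higher. Pcolce, which enhances removal of the carboxy-terminal propeptide, fell by 0.67 (adjusted p = 0.0142), and Loxl1, a lysyl oxidase, fell by 0.46 (adjusted p = 0.0381). Lox, the main lysyl oxidase that cross-links collagen and elastin, rose by 1.25 on the log2 scale (SE 0.13, adjusted p = 0.00269). Lox went from 72.5 to 164 CPM in white adipose, 51.8 to 152 in lung, 36.8 to 66.5 in brown adipose, 16.6 to 32.9 in muscle, 6.01 to 18.4 in kidney, 5.92 to 17.8 in spleen and 5.87 to 13.6 in heart, each a call, and stood at 0.868 and 0.921 CPM in liver. The most abundant other genes of the list, Bmp1 and Adamts2, the proteinases of the propeptides, had estimates of -0.06 and -0.16 (adjusted p = 0.787 and 0.211).

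The shares of all genes called, 2.08% lower and 2.31% higher, hold for the lists that follow as well, so that 0 calls in a list of this length are near the background. Among 15 other fibril proteins, Fn1 (fibronectin) fell by 0.31 (adjusted p = 0.0494) and Dcn (decorin, a proteoglycan bound to fibrils) rose by 0.34 (adjusted p = 0.0214). DESeq2 called 3 genes of this list lower and 2 higher, Fbn1 and Eln among them. By edgeR without adjustment, 3 were lower and 4 higher at p under 0.05. Dcn was higher and Fn1 lower in fasting in all 8 tissues, although neither passed the fold change of the within-tissue calls. Sparc, the most abundant gene of this list, had an estimate of -0.24 (adjusted p = 0.0862 by edgeR, called by DESeq2). Of 15 basement membrane proteins other than collagens 0 were called in either direction by edgeR (2 lower and 1 higher at an unadjusted p under 0.05, 1 lower and 1 higher by DESeq2), with estimates of -0.30 for Hspg2 (perlecan, adjusted p = 0.0884), -0.01 for Nid1 (nidogen) and -0.14 for Lamc1 (a laminin chain). Of 14 genes for matrix degradation and its inhibitors, Mmp9 (gelatinase B) fell by 0.65 (adjusted p = 0.0216), and Timp3, Timp2 and Timp4 had estimates of 0.45, 0.11 and 0.87 that edgeR did not call. At an unadjusted p under 0.05 this list had 3 genes lower and 4 higher, Timp3 and Timp4 among them, and DESeq2 called 3 lower and 2 higher, Timp3 among them. Of 8 collagen receptors 0 were called by edgeR, 0 at an unadjusted p under 0.05 and 0 by DESeq2. The most abundant, Itgb1, Itga1 and Ddr2, had estimates of -0.00, -0.12 and -0.12.

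Start regions were inspected for 3 short motifs, since several collagen genes fell together. RefSeq windows on GRCm38.p6, from 250 bases before to 50 bases after a start, were matched for 35 of the 44 genes. GGGCGG on either strand was in a window of 22 of the 35 (62.9%), against 35.7% of all 32851 windows. Of the 9 genes that fell over tissues 7 had a window, and GGGCGG was in those of 4 (Col5a1, Col5a3, Col6a2 and Col6a6). CCAAT on either strand was in 13 of the 35 (37.1%) against 37.4% of all windows, and TATAAA on either strand in 5 (14.3%) against 13.6%. Among the genes that fell, CCAAT was found for Col5a3 and TATAAA for Col3a1. A gene was counted when any of its windows held the motif. A match describes letters in a window and is no evidence of a bound factor. One stretch of 30 bases is printed for each of these genes to show the matches, 5′ to 3′ on the strand of the gene, with the motif or its reverse complement in capitals.
Col5a1 (chr2:27886340-27886369, plus strand): tgcgggcgttggGGGCGGtggggggtgggg
Col5a3 (chr9:20815054-20815083, minus strand): agggcgcggccaGGGCGGggtctcgggcag
Col6a2 (chr10:76623454-76623483, minus strand): cacccgctgaccCCGCCCatccgcggggcc
Col6a6 (chr9:105828210-105828239, minus strand): ccaggagtttggGGGCGGtccacgttgcag
Col3a1 (chr1:45311409-45311438, plus strand): actaatgcatgtTATAAAcatatgcatagg

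Relative to the RefSeq start of its window, the first base of the printed motif lay at -73 in Col5a1, -4 in Col5a3, -67 in Col6a2, -142 in Col6a6 and -117 in Col3a1. For Col6a2 and Col6a6 the RefSeq start is not the first base of the gene in the count table, which begins at 76623630 and 105828160 on the minus strand, so the Col6a2 stretch lies inside that gene. The uncalled type IV chains Col4a1 and Col4a2 held GGGCGG as well, including 1 match inside the 22 bases they share.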

How the data were processed

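Tissue of 3 mice per group was pooled and sequenced as strand-specific short-read RNA-Seq, 1 library per tissue and treatment. The authors used fastp 0.23.2 for trimming, FastQC 0.11.8 for quality, HISAT2 2.2.1.0 for alignment to the build GRCm38, and featureCounts of Subread 2.0 with GENCODE mouse release 24 for counting. They deposited raw counts per gene, with gene length as another value. The strand setting, and whether reads or read pairs were counted, are not given in the sources used here. Mitochondrial genes (37) had 0 counts.

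Groups followed the sample labels, and all 16 libraries were used. Symbols and biotypes came from GENCODE release 21 on the same build (55144 of 55385 genes matched). CPM used library totals. Within a tissue, the Fisher exact test (two-sided) was run on every gene with a count, with a pseudocount of 0.01 CPM, the thresholds 0.5 (log2) and 0.01 (unadjusted p) following the methods of the paper. Across tissues, edgeR 4.0.16 (R 4.3.3) fitted tissue and treatment with TMM factors and filterByExpr (17296 genes, 7 residual degrees of freedom), with calls under 0.05 after Benjamini-Hochberg adjustment of the p-values. Nothing says that pools were repeated, so these p-values measure the spread between tissues. Both steps were run on simulated data with known changes. For Fisher's exact test the simulated counts held no variation between pools, so that run could not check how the calls fare under such variation. Class sums and medians carry no test. Alternatives used DESeq2 1.42.0, other scalings, pseudocounts, filters and thresholds, an edgeR exact test in which the variation between pools was assumed, and tissues left out.

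The collagen genes, the classes, the pathway lists and the marker lists were chosen with earlier results of these data known. Named are all fibrillar and type IV chains, other chains with 10 CPM in a library, the largest called changes per tissue at that level, every chain called across tissues, and from each pathway list the 3 most abundant genes and up to 5 called across tissues. Chains that no rule named appear only in counts, apart from Col9a2, which never reached 1 CPM, and the list of chains called in no tissue. The other software was matplotlib 3.10.9, scipy 1.17.1, pandas 2.3.3, numpy 2.4.6 and Python 3.11.15.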

Additional observations from a re-analysis of the deposited data

Results flagged for a closer look

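No group holds more than 1 library, so no library could be compared with others of its group. Collagen genes called in opposite directions in different tissues and reaching 10 CPM in both tissues are listed here. The values given are the highest and the lowest of their called log2 fold changes among tissues where they reached that level. The difference between the tissues was not tested in any of these cases. Col27a1 had 1.31 in kidney and -2.21 in liver. Col4a4 had 1.53 in white adipose and -0.53 in kidney. Col8a1 had 0.96 in kidney and -0.61 in muscle. Col11a2 had 0.51 in spleen and -0.79 in muscle.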

How the results depend on the processing

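Limits first. Each within-tissue call compares 2 libraries, Fisher's exact test holds no variation between pools, and most within-tissue calls are lost once such variation is assumed. Low counts limit chains under 1 CPM. The summed type IV level of liver changed direction with the scaling, at -0.06 on library totals and 0.06 with TMM factors or DESeq2 size factors, and the fibrillar median of white adipose did so too.

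With an assumed coefficient of variation of 0.4 in edgeR's exact test, 1 fall (in brown adipose) and 3 rises (in white adipose) were called, against 87 and 29, and the other tissues had 0 either way. With 0.2, 27 falls and 8 rises were called. The falls were 8 in muscle, 4 in liver, 2 in white adipose, 6 in brown adipose, 3 in heart, 0 in spleen, 4 in kidney and 0 in lung, and the rises were 6 in white adipose, 2 in kidney and 0 elsewhere. With a log2 fold change above 1, 35 falls and 15 rises were called. The falls were 9 in muscle, 6 in liver, 3 in white adipose, 7 in brown adipose, 3 in heart, 1 in spleen, 4 in kidney and 2 in lung. The rises at that threshold moved to 1 in muscle, 0 in brown adipose and 0 in spleen. With adjusted p-values the rises in muscle became 1, with a pseudocount of 1 CPM those in spleen became 1, and with TMM factors or DESeq2 size factors those in liver became 2. Other counts under these settings stayed within 1.5 times.

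Over tissues, the 9 falls became 0 without the tissue block and 4 without both adipose tissues. Leaving out each tissue in turn gave 3 to 11 falls, with 4 without muscle, 3 without brown adipose and 3 without heart. No setting called a rise. Col3a1, Col6a3 and Col15a1 were called under 14 of 15 alternatives, the exception being the fit without the block. The fibrillar median lay below the type IV median in 8 tissues under every scaling, pseudocount and filter tried, and the fibrillar sum was lower in fasting in 7. The sums did not keep this order in kidney, where on library totals the fibrillar sum changed by 0.00 and the type IV sum by -0.34. The fit over tissues is itself paired, since the tissue block sets the fasting against the fed library of each tissue, and the labels give no replicate numbers for another pairing.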
